A study of Mus musculus with 28 samples.

Results

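The Plekhh2-to-Prepl cluster is a row of 8 annotated genes on mouse chromosome 17 that lies on the far side of the poised enhancer of Six3 (PE Six3) as seen from Six2. Its members are Plekhh2, Dync2li1, Abcg5, Abcg8, Lrpprc, Ppm1b, Slc3a1 and Prepl, 8 of the 1059 protein-coding genes of chromosome 17 in the RefSeq table. The rule takes them by position and uses no measured value, though they were chosen with earlier results of these data known. All restriction fragments whose midpoint lay in an annotated span, or in the 5 kb on each side of it, were counted. By this rule the cluster held 213 of 9587 fragments in the PE Six3 del36 library and 136 of 10132 in the PE Six3 WT library. It held 77 of 12648 fragments in the Six2 promoter del36 library and 57 of 12854 in the Six2 promoter WT library.

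Contacts were measured by 4C-seq, which cuts and religates cross-linked chromatin and then sequences whatever was ligated to 1 chosen fragment, called the viewpoint. The cells were E14Tg2a, a line of mouse embryonic stem cells (ESC), labelled as ESC in 2i+LIF, although the growth protocol describes serum with LIF. The del36 cells lack a boundary of topologically associating domains between Six3 and Six2 and were set against wild type (WT) cells, each genotype read from a viewpoint at PE Six3 and from a viewpoint at the Six2 promoter. There was 1 library per viewpoint and genotype and the sources used here do not give the number of del36 clones. Each difference is therefore between a pair of libraries, without a test or a p-value.

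The cluster spans chr17:84506895-85095504 (mm10), 589 kb, of which the 8 spans with their flanks fill 433 kb and a stretch of 156 kb between Lrpprc and Ppm1b holds none of the members. From the end far from PE Six3, Plekhh2 is annotated at 84511895 to 84622143, Dync2li1 at 84626475 to 84655568, Abcg5 at 84658174 to 84683011 and Abcg8 at 84676302 to 84700333. Lrpprc follows at 84705247 to 84790786, Ppm1b at 84956741 to 85023992, Slc3a1 at 85028347 to 85064241 and Prepl at 85062511 to 85090504. The cluster lies 0.390 to 0.979 Mb from the PE Six3 viewpoint and 0.594 to 1.18 Mb from the Six2 promoter viewpoint. The stretch without reads in del36, from 85629635 to 85666796, lies between the cluster and the Six2 promoter but not between the cluster and PE Six3. In del36 the cluster is therefore nearer to the Six2 promoter than the mm10 distance, by the length of the deletion. The stretch without reads is 37.2 kb long and may exceed the deletion, since unread fragments at its edges count in it.

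Poised enhancers are regulatory elements of developmental genes that are kept inactive in ESC and contact their target genes beforehand, often together with CpG-rich sequence. Domain boundaries are known to limit contacts between neighbouring domains, so a 4C-seq profile usually falls with distance and changes where a boundary is crossed. The 8 genes belong to no single pathway. Abcg5 and Abcg8 encode the half-transporters that together export sterols from liver and intestinal cells, and Slc3a1 encodes a subunit of a kidney transporter of cystine and basic amino acids. Lrpprc encodes a protein that stabilises mitochondrial mRNA, Ppm1b a serine/threonine phosphatase and Prepl a peptidase-like hydrolase. Dync2li1 encodes a light intermediate chain of the dynein that moves cargo down the cilium, and Plekhh2 an actin-associated protein of kidney podocytes. No expression was measured in these libraries.

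Since CpG-rich promoters are the subject of the series, the promoter sequences of the members were read from RefSeq (GRCm38.p6, the same assembly as mm10), each 300 bases from 250 before to 50 after an annotated start. A sequence was found for 7 of the 8 genes, and Dync2li1 is named only. The 4 below run from many CpG to few: Lrpprc and Prepl hold many CpG, Abcg5 few, and Slc3a1 as many as the median mouse promoter. Plekhh2, which is not printed, holds more than Lrpprc. They are printed 5′ to 3′ on the strand of the gene, in lower case with every CpG in capitals. They lie at chr17:84790737-84791036 (Lrpprc, minus strand), chr17:85090225-85090524 (Prepl, minus strand), chr17:84682962-84683261 (Abcg5, minus strand) and chr17:85028097-85028396 (Slc3a1, plus strand).
Lrpprc: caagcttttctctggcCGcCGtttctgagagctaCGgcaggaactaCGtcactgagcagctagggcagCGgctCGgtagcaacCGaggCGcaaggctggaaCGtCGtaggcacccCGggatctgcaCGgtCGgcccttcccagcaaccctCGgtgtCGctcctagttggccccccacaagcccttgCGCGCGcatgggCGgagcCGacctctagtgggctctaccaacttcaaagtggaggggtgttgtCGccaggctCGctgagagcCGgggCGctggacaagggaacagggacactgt
Prepl: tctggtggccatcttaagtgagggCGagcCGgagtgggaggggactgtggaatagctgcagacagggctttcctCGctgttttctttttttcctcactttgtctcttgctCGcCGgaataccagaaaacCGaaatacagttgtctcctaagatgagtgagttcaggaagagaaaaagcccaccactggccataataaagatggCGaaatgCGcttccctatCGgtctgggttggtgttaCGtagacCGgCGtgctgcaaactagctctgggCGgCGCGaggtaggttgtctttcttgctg
Abcg5: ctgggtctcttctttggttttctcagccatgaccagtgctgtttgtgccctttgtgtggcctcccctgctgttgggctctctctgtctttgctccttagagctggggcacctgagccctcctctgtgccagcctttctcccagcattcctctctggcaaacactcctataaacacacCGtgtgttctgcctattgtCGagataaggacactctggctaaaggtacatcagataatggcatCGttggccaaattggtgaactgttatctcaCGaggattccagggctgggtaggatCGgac
Slc3a1: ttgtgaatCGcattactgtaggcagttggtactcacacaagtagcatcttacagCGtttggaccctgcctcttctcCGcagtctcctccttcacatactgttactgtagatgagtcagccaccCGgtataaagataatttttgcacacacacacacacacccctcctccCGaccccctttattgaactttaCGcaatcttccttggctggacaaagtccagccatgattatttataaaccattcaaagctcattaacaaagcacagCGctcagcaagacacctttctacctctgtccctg

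The Lrpprc promoter held 24 CpG, Prepl 15, Slc3a1 7 and Abcg5 5, against a median of 7 over 32851 mouse promoters of the same length. As a ratio of observed to expected CpG this was 0.77 for Lrpprc, 0.75 for Prepl, 0.49 for Slc3a1 and 0.24 for Abcg5, against a median of 0.38 over all promoters. Of the promoters not printed, Plekhh2 had 25 CpG and a ratio of 0.87, Abcg8 21 and 0.66, and Ppm1b 7 and 0.47. Thus 4 of the 7 reached a ratio of 0.6, as did 35.8% of all promoters. Ppm1b has an alternative annotated start with 22 CpG and a ratio of 0.80, and Abcg8 has one with 6 CpG and 0.29 whose window overlaps that of Abcg5 on the other strand. CATG, the site of the first enzyme (NlaIII), which reads the same on both strands, was present in the windows of Lrpprc, Abcg5 and Slc3a1 and in 61.1% of all promoters.

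The libraries differed in depth and in how much the viewpoint itself took. The PE Six3 libraries held 2238911 reads in del36 and 7730539 in WT, and the viewpoint fragment took 42.5% of chromosome 17 reads in del36 and 71.1% in WT. The Six2 promoter libraries held 6056180 reads in del36 and 6169568 in WT, of which 311457 chromosome 17 reads in del36 and 230850 in WT lay more than 10 kb from the viewpoint. Values below are shares of all chromosome 17 reads, or of local reads, meaning those within 1 Mb of the viewpoint with 10 kb on each side of it left out. There were 355383 local reads in PE Six3 del36 and 1218764 in PE Six3 WT, and 238250 in Six2 promoter del36 and 165248 in Six2 promoter WT. Intervals are 95% intervals (Wilson for shares, exact conditional for ratios) and cover counting error only, since PCR reads without molecular identifiers are not independent molecules.

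From PE Six3, the cluster as a whole held nearly the same share of all chromosome 17 reads, viewpoint included, in both genotypes. It held 32507 reads in del36, 1.75% of chromosome 17 (1.73% to 1.77%), and 141117 reads in WT, 1.96% (1.95% to 1.97%). The log2 ratio of del36 over WT was -0.16 (-0.18 to -0.14). As a share of local reads the cluster held 9.15% in del36 and 11.6% in WT, a log2 ratio of -0.34 (-0.36 to -0.32). The sign of the chromosome 17 ratio was not stable: it was 0.12 when the tallest fragment of each gene in each library was left out and 0.11 by covered length, the bases of fragments with any read. Without Plekhh2 it was -0.35. The viewpoint took unlike shares of the del36 and WT reads, and with 10 kb on each side of it left out the cluster ratio was -0.39.

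Seen from the Six2 promoter, the cluster held 2.05 times as large a share in del36 as in WT. It held 16778 reads in del36, 0.310% of chromosome 17 (0.305% to 0.314%), and 8240 reads in WT, 0.151% (0.148% to 0.154%). The log2 ratio was 1.03 (1.00 to 1.07). Most reads of these libraries lay on the viewpoint, and with 10 kb on each side of it left out the ratio was 0.59. The 1-Mb limit falls within Abcg8, so 57.8% of the cluster was in range for local reads, of which that portion held 4.88% in del36 and 2.51% in WT, a log2 ratio of 0.96.

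The cluster was read more deeply from PE Six3 than from the Six2 promoter in both genotypes. Its share of chromosome 17 was 5.66 times higher from PE Six3 in del36 and 12.9 times higher in WT. The distances differ by 204 kb and the viewpoint fragments take different shares, so these values describe the libraries and are no measure of contact strength.

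The 8 genes differed among themselves in level. Per kb of span and per 1000000 chromosome 17 reads, from PE Six3, Slc3a1 stood highest in del36 with 73.4 (71.6 to 75.3), followed by Abcg8 with 71.8 (69.7 to 73.9), whose intervals overlap. Dync2li1 and Prepl overlapped too, at 52.4 and 51.2, as did Abcg5 and Ppm1b, at 41.5 and 40.5, with Lrpprc at 47.1 between these pairs. In WT the order was Abcg8 with 87.2, Slc3a1 with 74.4, Lrpprc with 61.1, Ppm1b with 58.8, Prepl with 58.3, Abcg5 with 35.7 and Dync2li1 with 27.4, where Ppm1b and Prepl alone overlapped.

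Plekhh2, the gene farthest from PE Six3, was the lowest in both genotypes. Its density was 21.0 (20.4 to 21.6) in del36, 3.50 times below Slc3a1, and 2.83 (2.72 to 2.95) in WT, 30.7 times below Abcg8.

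The order from the Six2 promoter was another one. In del36 Prepl, the nearest gene, was highest with 15.0, then Ppm1b with 8.25, Lrpprc with 7.68, Dync2li1 with 6.39, Slc3a1 with 5.94, Abcg5 with 5.78, Plekhh2 with 4.91 and Abcg8 with 2.22. Intervals of neighbours overlapped for Dync2li1 and Slc3a1 and for Slc3a1 and Abcg5. In WT Abcg8 was highest with 5.47, then Plekhh2 with 5.04, Prepl with 4.79, Ppm1b with 3.98, Abcg5 with 3.53, Slc3a1 with 1.97, Lrpprc with 1.26 and Dync2li1 with 0.742. Intervals overlapped between Abcg8 and Plekhh2, between Plekhh2 and Prepl, and between Ppm1b and Abcg5. Abcg8 thus stood last in del36 and first in WT.

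**Figure D1:**
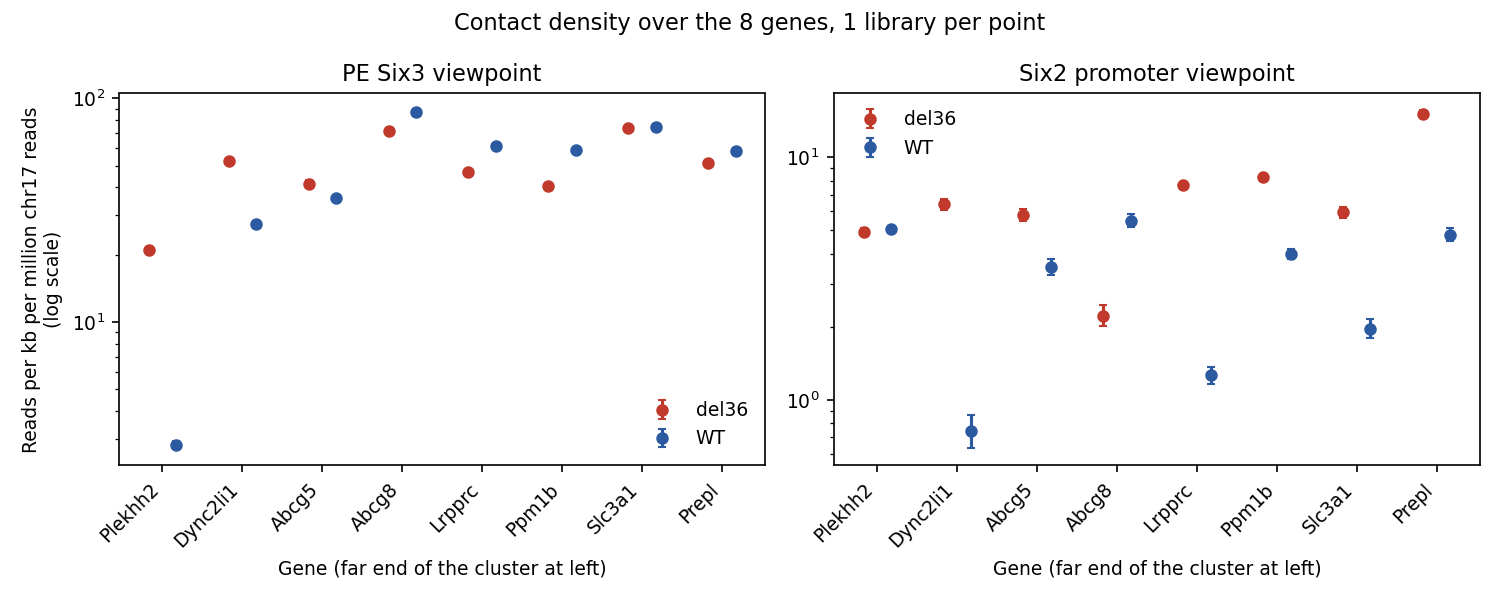
Contact density over each of the 8 genes, in reads per kb of span per 1000000 chromosome 17 reads on a log axis, with genes in chromosome order from the end far from PE Six3; each point is 1 library (del36 left, WT right of each pair) with its 95% Poisson interval. From PE Six3 Plekhh2 lies lowest in both genotypes, at 21.0 in del36 and 2.83 in WT, and from the Six2 promoter Abcg8 is lowest in del36 at 2.22 and highest in WT at 5.47.

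Between genotypes, from PE Six3, 3 of the 8 genes held a higher share of chromosome 17 reads in del36 and 5 a lower one. At 2-fold, 1 was higher (Plekhh2) and 0 were lower. Among 246 other protein-coding genes of chromosome 17 with at least 10 reads in both libraries together, 58.5% were at least 2-fold higher in del36, 33.3% at least 2-fold lower and 63.4% higher at all. The median log2 ratio was -0.10 over the members and 1.28 over these other genes, whose quartiles were -1.42 and 7.13. Only 111 of these 246 genes had reads in both libraries, whereas each member had at least 2457 reads in each. The other genes were not matched to the members in reads or distance, so their percentages are no like-for-like scale. Viewed from the Six2 promoter, 6 of the 8 members were higher and 2 lower, with 5 at least 2-fold higher and 1 at least 2-fold lower. Of 249 other genes, 43% were at least 2-fold higher, 43% at least 2-fold lower and 49.4% higher at all. The medians were 1.32 over the members and 0.01 over the other genes, of which 167 had reads in both libraries. The same limit holds for this comparison. Dync2li1 and Abcg5 were higher from both viewpoints, Abcg8 was lower from both, and the other 5 had opposite signs, though for Plekhh2 and Slc3a1 the interval of 1 of the ratios includes 0. These signs hold for spans with 5 kb on each side and all fragments. From PE Six3 that of Abcg5 held under 7 of 12 alternatives, Prepl under 8, Slc3a1 under 9, Dync2li1 under 10 and Lrpprc under 11. From the Six2 promoter those of Abcg5 and Abcg8 held under 10 and those of Dync2li1 and Plekhh2 under 11. The remaining signs held under all 12. These alternatives are not independent checks. Some change the denominator only, which shifts all genes of a viewpoint alike, and counting by any overlap or by at least 3 reads left most ratios nearly unchanged.

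**Figure D2:**
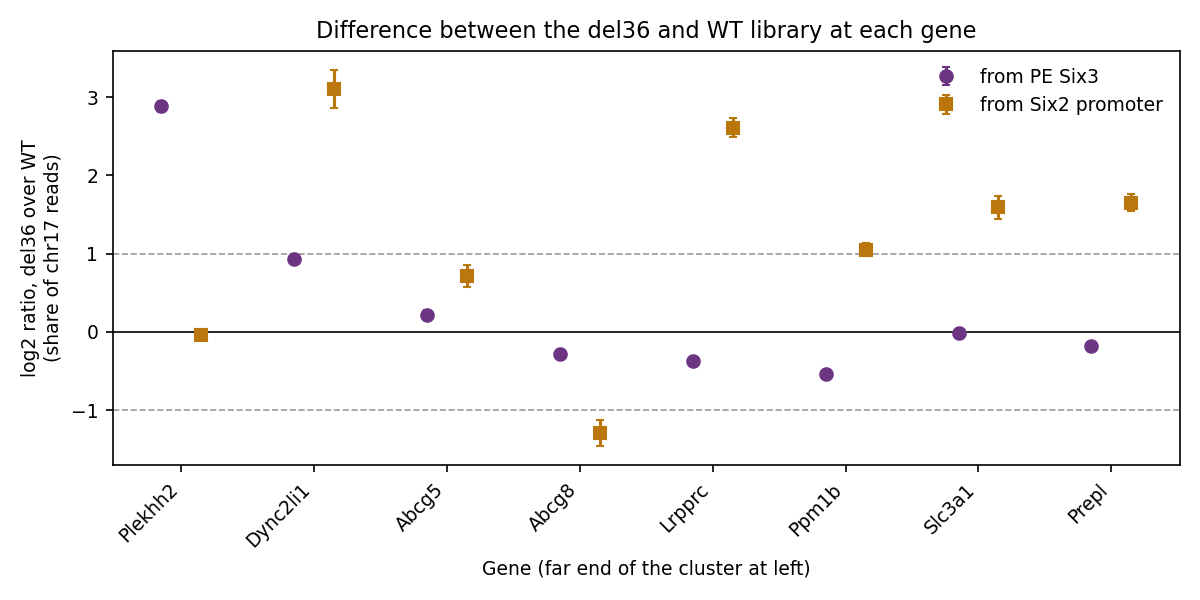
Log2 ratio of del36 over WT in the share of chromosome 17 reads for each of the 8 genes, from PE Six3 and from the Six2 promoter; bars are 95% intervals of counting error, and there is 1 library per genotype. From PE Six3 Plekhh2 stands at 2.89 and the other 7 between -0.54 and 0.94, and from the Six2 promoter the values run from -1.30 at Abcg8 to 3.11 at Dync2li1.

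The sterol transporter genes Abcg5 and Abcg8 overlap on the chromosome and share fragments, so they are no independent pair. Abcg5 held 2682 reads from PE Six3 in del36 and 8964 in WT, 0.145% and 0.124% of chromosome 17 in del36 and WT, a log2 ratio of 0.22 (0.16 to 0.28). Abcg8 held 4529 reads in del36 and 21381 in WT, 0.244% and 0.297% of chromosome 17 in del36 and WT, a ratio of -0.28 (-0.33 to -0.23). The ratio of Abcg5 was 1.02 over its span alone and -0.77 by covered length, so its sign depended on the setting.

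With the Six2 promoter as viewpoint the pair differed in sign. Abcg5 held 1091 reads in del36 and 670 in WT, a log2 ratio of 0.71 (0.57 to 0.85), and Abcg8 held 410 reads in del36 and 1014 in WT, a ratio of -1.30 (-1.47 to -1.13). These values rest on few fragments, 4 in del36 and 4 in WT for Abcg5 and 6 in del36 and 5 in WT for Abcg8. A single fragment at 84669611 to 84669935, inside the span of Abcg5, held 76.8% of its del36 reads. Without the tallest fragment in each library the ratio of Abcg5 was -0.76. With 10 kb on each side of the span in place of 5 kb, the ratio of Abcg8 was 0.038.

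Slc3a1, the gene of the amino acid transporter subunit, held nearly equal shares from PE Six3. It had 6249 reads in del36 and 24614 in WT, 0.337% and 0.341% of chromosome 17 in del36 and WT. The interval of its log2 ratio of -0.02 (-0.06 to 0.02) includes 0, but with 10 kb around the viewpoint left out the ratio was -0.25. From the other viewpoint it had 1476 reads in del36 and 492 in WT, a ratio of 1.59 (1.45 to 1.74).

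Prepl overlaps the end of Slc3a1 and is the member nearest to both viewpoints. From PE Six3 it held 3607 reads in del36 and 15962 in WT, 0.195% and 0.221% of chromosome 17 in del36 and WT, a log2 ratio of -0.19 (-0.24 to -0.13), which was 0.17 without the tallest fragment in each library. Six2 promoter contacts of Prepl were 3097 reads in del36 and 991 in WT, 0.0572% and 0.0182% in del36 and WT, a ratio of 1.65 (1.55 to 1.76). The phosphatase gene Ppm1b had the lowest ratio of the 8 from PE Six3, with 5794 reads in del36 and 32754 in WT and a log2 ratio of -0.54 (-0.58 to -0.50). Its counts from the Six2 promoter were 3453 reads in del36 and 1677 in WT, a ratio of 1.05 (0.97 to 1.14).

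Lrpprc, the mitochondrial mRNA gene, held the most reads of the members from PE Six3 in both libraries. There it had 8341 reads in del36 and 42102 in WT, 0.450% and 0.584% of chromosome 17 in del36 and WT, a log2 ratio of -0.38 (-0.41 to -0.34). In the Six2 promoter libraries it had 3976 reads in del36 and 656 in WT, 0.0734% and 0.0120% in del36 and WT, a ratio of 2.61 (2.49 to 2.73). In that WT library 280 of the 656 reads lay on 1 fragment at 84738271 to 84738655, and the median fragment of the gene had 1.5 reads, against 120.5 in del36.

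At the far end of the cluster, the ciliary dynein gene Dync2li1 held 3797 reads from PE Six3 in del36 and 7709 in WT, a log2 ratio of 0.94 (0.88 to 0.99), which was -0.088 by covered length. In the WT library 1 fragment at 84631595 to 84632163 carried 5334 of these reads, 69.2%. The Six2 promoter libraries held 1354 of its reads in del36 and 158 in WT, a ratio of 3.11 (2.87 to 3.35), the highest of the 8, but its covered length gave -0.92.

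Plekhh2, the podocyte gene, had 4672 reads from PE Six3 in del36 and 2457 in WT although the WT library was deeper. This was 0.252% of chromosome 17 (0.245% to 0.259%) in del36 and 0.0341% (0.0328% to 0.0355%) in WT, a log2 ratio of 2.89 (2.82 to 2.96), or 7.39-fold. The size of this ratio depended on the flank and the measure: it was 1.06 with 10 kb on each side of the span and 1.77 by covered length. Its counts from the Six2 promoter were 3198 reads in del36 and 3303 in WT, a ratio of -0.04 (-0.11 to 0.03) whose interval includes 0. The PE Six3 reads of Plekhh2 lay on 26 fragments in del36 and 11 in WT, of which 1 was read in both.

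The profile in windows of 10 kb shows where these differences sat. From PE Six3, the windows at 84606895 to 84616894 in Plekhh2 and at 84656895 to 84666894 in Abcg5 held 1107 and 1404 reads in del36 and 0 reads each in WT. With 3 reads put in place of the WT count, the log2 ratios were 10.5 and 10.8. These are no lower bounds, since the del36 reads lay on 4 and 5 fragments and WT had 0 fragments there. The median fragment of the cluster had 369.5 reads in WT, so 1 more fragment read could lower such a ratio greatly. The lowest ratio was in a window at 84786895 to 84796894, at the start of Lrpprc, with 133 reads in del36 and 8973 in WT (-4.12). Among the 56 windows with at least 10 reads, 29 were higher and 27 lower, 23 and 17 of them by 2-fold. Outside the cluster, 133 windows within 1 Mb gave 65.4% higher, 46.6% at least 2-fold higher and 19.5% at least 2-fold lower.

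In the Six2 promoter profile, 37 of 49 such windows were higher in del36 and 12 lower, 35 and 12 of them by 2-fold. Outside the cluster, 146 windows gave 69.9% higher, 45.9% at least 2-fold higher and 13% at least 2-fold lower. The highest ratios were in the stretch between Lrpprc and Ppm1b, with 829 reads in del36 and 1 in WT, in Lrpprc, with 623 in del36 and 1 in WT, and in Ppm1b, with 1520 in del36 and 3 in WT. The lowest was again between Lrpprc and Ppm1b, with 1 read in del36 and 948 in WT. High and low windows therefore lay in the same stretch between these genes.

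**Figure D3:**
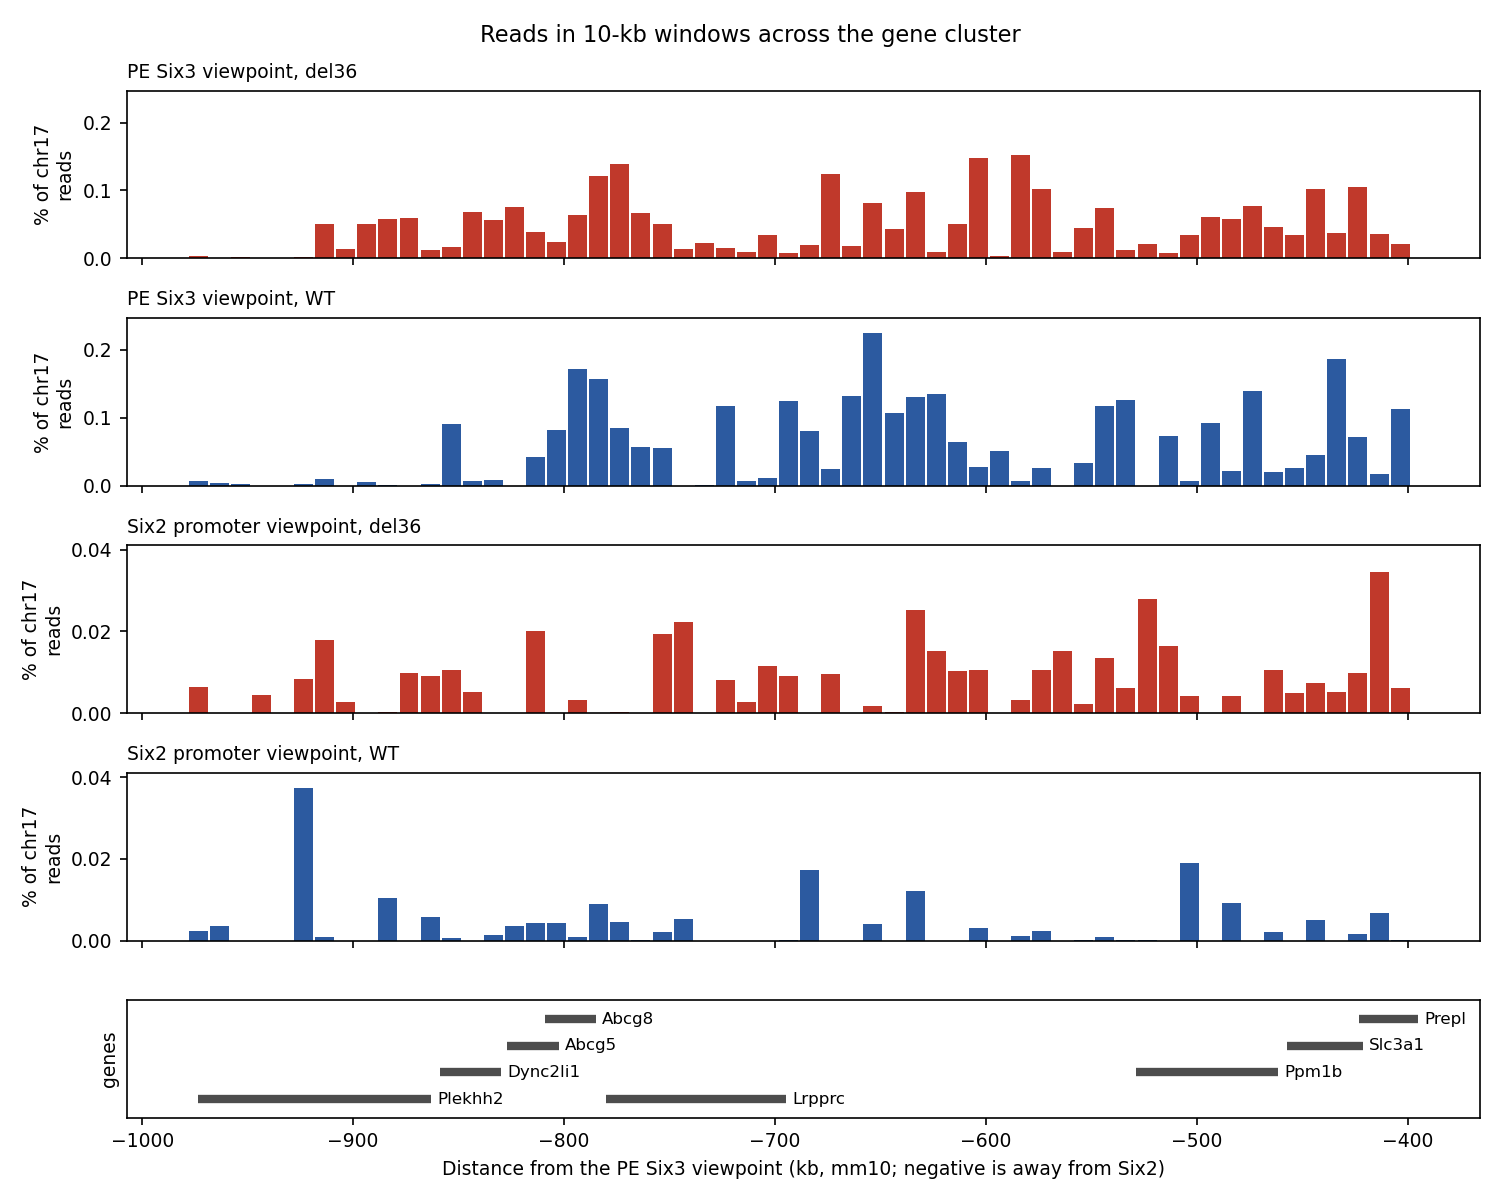
Share of chromosome 17 reads in windows of 10 kb across the cluster, against distance from PE Six3, for the 4 libraries (del36 above WT for each viewpoint), with the annotated genes below. In PE Six3 WT the windows over Plekhh2 hold few reads, 0 in the window with 1107 reads in del36. From the Six2 promoter the highest window holds 0.0346% in del36, over Prepl, and 0.0373% in WT, over Plekhh2.

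Most restriction fragments with reads over the cluster were read in only 1 library of a pair. From PE Six3, 307 fragments of the cluster were read in either library and 42 in both, and these 42 carried 23.5% of the del36 reads and 39.0% of the WT reads. For the Six2 promoter, 109 were read in either library and 25 in both, with 50.5% of the del36 reads and 24.6% of the WT reads. Over the shared fragments alone, chosen as a measure after the data were seen, the cluster ratio was -0.86 from PE Six3 and 2.08 from the Six2 promoter. Low overlap was not particular to the cluster. In the PE Six3 pair, neighbouring genes shared 133 of 634 fragments (Camkmt), 18 of 146 (Srbd1) and 14 of 169 (Prkce). In the Six2 promoter pair these genes shared 57 of 227, 49 of 159 and 33 of 151. Six3 went the other way, with 31 of 38 in the former pair and 29 of 39 in the latter. So did Six2 (43 of 66), whose counted span includes the viewpoint, and Zfp36l2 (1 of 1) in the latter. The Zfp36l2 fragment held 395 reads in del36 and 1 in WT. The overlap over all chromosome 17 fragments is not given here, so these counts have no chromosome-wide scale beside them.

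Among genes, Dync2li1 shared 1 of 25 fragments from PE Six3, Abcg5 2 of 28, and Lrpprc 13 of 76. For the same comparison from the Six2 promoter, the 8 fragments of Lrpprc read in both libraries carried 63.3% of its del36 reads and 1.68% of its WT reads. For Dync2li1 3 shared fragments carried 96.2% of the del36 reads and 2.53% of the WT reads. The median fragment of the cluster had 52 reads in del36 and 369.5 in WT from PE Six3, and 144 in del36 and 13 in WT from the Six2 promoter.

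**Figure D4:**
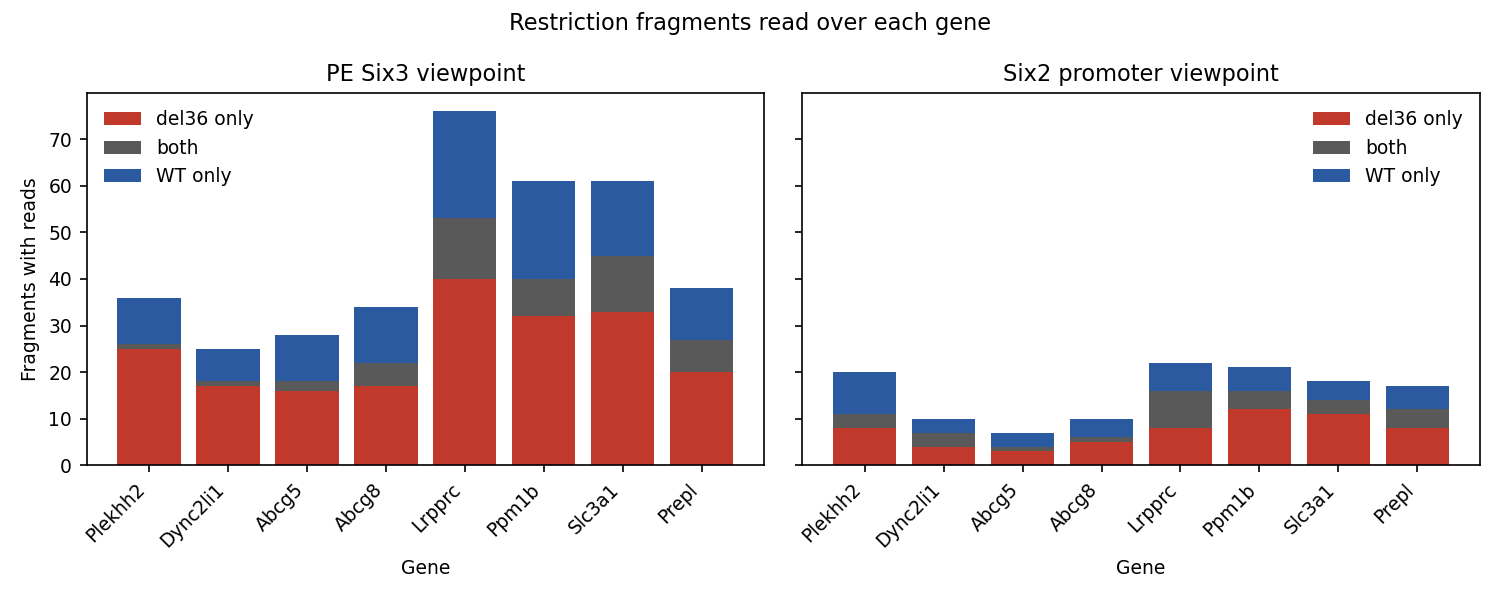
Number of restriction fragments with reads over each gene, split into those read in del36 only, in both libraries, and in WT only, from PE Six3 and from the Six2 promoter. Fragments read in both libraries are 1 of 36 for Plekhh2 and 13 of 76 for Lrpprc from PE Six3, and 3 of 20 for Plekhh2 and 8 of 22 for Lrpprc from the Six2 promoter.

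At the annotated starts, within 5 kb on each side, the values of the genes differed in direction. The start of Lrpprc held 535 reads in del36 and 7478 in WT from PE Six3 (-1.85), and 494 in del36 and 3 in WT from the Six2 promoter. That ratio is 7.37, with a counting interval of 5.82 to 9.65. The start of Prepl held 630 reads in del36 and 2861 in WT from PE Six3 (-0.22), and 355 in del36 and 531 in WT from the Six2 promoter (-0.57). The start of Abcg5, which has few CpG, held 251 in del36 and 5941 in WT from PE Six3 (-2.61), and 0 in del36 and 239 in WT from the Six2 promoter.

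The start of Slc3a1 held 1141 reads in del36 and 1835 in WT from PE Six3 (1.27), and 264 in del36 and 120 in WT from the Six2 promoter (1.15). At Ppm1b the PE Six3 window held 293 reads on 5 fragments in del36 and 6813 reads on 1 fragment in WT (-2.58). The Six2 promoter libraries held 530 reads there in del36 and 5 in WT. The start of Abcg8 used here, at 84676302, lies inside the annotated span of Abcg5. It held 910 reads in del36 and 1956 in WT from PE Six3 (0.86), and 229 in del36 and 232 in WT from the Six2 promoter (-0.01). The start of Plekhh2 held 71 reads in del36 and 478 in WT from PE Six3 (-0.79), and 346 in del36 and 132 in WT from the Six2 promoter (1.40). The starts used here with a CpG ratio of at least 0.6 were those of Plekhh2, Abcg8, Lrpprc and Prepl. From PE Six3, Abcg8 was higher in del36 and the other 3 were lower. From the Six2 promoter, Plekhh2 and Lrpprc were higher and Prepl lower, while the interval of Abcg8 (-0.28 to 0.26) includes 0. This grouping depends on the start used. The other start of Abcg8, at 84683121, has a ratio of 0.29. It lies beside the start of Abcg5, at 84683011, whose window was lower in del36 from PE Six3 (-2.61). The direction given for Abcg8 from PE Six3 therefore holds for the start used only, and no window was counted at its other start. Another start of Ppm1b, at 84958001 and inside the window counted, has 0.80. No link with CpG content was tested.

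The surroundings of the cluster give the scale of its ratios. Camkmt, which lies between the cluster and PE Six3, held 98010 reads in del36 and 370996 in WT from PE Six3 (0.04), and 39156 in del36 and 19234 in WT from the Six2 promoter (1.03). Per kb it stood 3.45 times above the cluster in del36 and 3.01 times in WT from PE Six3, and 2.67 times in both genotypes from the Six2 promoter. The gap between Lrpprc and Ppm1b held 18174 reads in del36 and 87845 in WT from PE Six3 (-0.31), and 6726 in del36 and 2238 in WT from the Six2 promoter (1.60). On the other side of PE Six3, Six3 had ratios of 0.54 from PE Six3 and 1.07 from the Six2 promoter. In the same order Srbd1 had 0.55 and 0.36, and Prkce 0.90 and 0.80. Six2 had 0.53 and -0.02, the latter over a span that includes the viewpoint. None of these differences from the cluster was tested.

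A mirror stretch was laid out at matching distances past the viewpoint, toward and beyond Six2. It held 2.08% of chromosome 17 reads in del36 and 1.26% in WT from PE Six3 (0.72). The cluster thus held 0.844 times the reads of the mirror stretch in del36 and 1.56 times in WT. The mirror stretch of the Six2 promoter held 0.237% in del36 and 0.142% in WT (0.74), and the cluster held 1.31 times as much in del36 and 1.06 times in WT. From PE Six3, the mirror stretch lies beyond the deletion and is nearer in del36 by its length.

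Beyond the far end, Thada held 2851 reads in del36 and 25063 in WT from PE Six3 (-1.18), and 2413 in del36 and 3647 in WT from the Six2 promoter (-0.59). Plekhh2, its neighbour in the cluster, differed from it in sign from PE Six3. Of 32 protein-coding genes within 3 Mb, those with levels over the 4 libraries nearest to the median member were Prkce, Camkmt and Srbd1. Their Euclidean distances over the 4 libraries were 2.43, 2.67 and 3.11 on the scale of log2 (density + 1).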

How the data were processed

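4C-seq was read from 4 libraries with a viewpoint on chromosome 17, and 9 libraries with other viewpoints were read for background. The authors deposited fragment values in RPM (reads scaled to library depth). HISAT2 and mm10 are named in the submitters' processing notes, and the sources used here give no version or read filter. RPM values were all whole multiples of the smallest value of their library (100% within 0.1), so reads were recovered by division. A count test on these reads was not run, since there was 1 library per condition.

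The viewpoint was the fragment holding the most reads. Genes came from a RefSeq table of GRCm38.p6. Fragments were counted by midpoint, a member's span had 5 kb added on each side, and "called" meant a 2-fold difference. Shares have Wilson and ratios exact (Clopper-Pearson) 95% intervals, and the ratio step was tested on simulated data. Tools were Python 3.11.15, numpy 2.4.6, pandas 2.3.3, scipy 1.17.1 and matplotlib 3.10.9.

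The members, neighbours and lists were chosen with earlier results of these data known. The rule names all 8 members, 9 neighbours, the tallest fragments, the 3 windows of 10 kb with the largest ratio each way, and the 3 genes most like the members. Alternatives changed the denominator, the flank, the fragment filter, the cap on tall fragments, the subtraction of shared reads, and covered length in place of reads.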

Additional observations from a re-analysis of the deposited data

Results flagged for a closer look

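Some ratios of del36 over WT differed in sign between the viewpoints, with counting intervals that did not reach 0 on either side. The difference between viewpoints was not tested, as there is 1 library per viewpoint and genotype. The cluster ratio was -0.16 from PE Six3 and 1.03 from the Six2 promoter. For Lrpprc the ratios were -0.38 from PE Six3 and 2.61 from the Six2 promoter. For Ppm1b they were -0.54 from PE Six3 and 1.05 from the Six2 promoter. For Prepl they were -0.19 from PE Six3 and 1.65 from the Six2 promoter. The sign from PE Six3 was not stable: the cluster ratio was 0.12 and that of Prepl 0.17 without the tallest fragment of each gene and library, and that of Lrpprc was 0.21 by covered length.

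Reads of the cluster also appeared in libraries whose viewpoint is not on chromosome 17. In AntNPC (anterior neural progenitor cells) with the Gata6 promoter as viewpoint, the cluster held 148 reads in the library with the inserted TFBS+CGI (transcription factor binding sites and CpG island of PE Sox1), 99 in the TFBS library, 40 in the CGI library and 386 in the WT library. The other 5 libraries had 0 cluster reads. The most was 56.1 RPM of the whole library, against 1336 RPM or more in the libraries with a viewpoint on chromosome 17. As shares of chromosome 17 reads these were 0.801% (TFBS+CGI), 0.958% (TFBS), 0.315% (CGI) and 1.59% (WT), on 3 or 4 fragments each. The Six2 promoter libraries held smaller shares, 0.310% in del36 and 0.151% in WT. The Gata6 promoter libraries had few chromosome 17 reads in all, 24241 in WT.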

How the results depend on the processing

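All values are log2 ratios of del36 over WT. From PE Six3, the cluster's share of chromosome 17 reads (-0.16) was -0.33 with the deposited RPM, -0.39 without 10 kb and -0.43 without 25 kb around the viewpoint. It was -0.20 with spans alone and -0.35 with capped fragments. It was above 0 with the tallest fragment left out (0.12), by covered length (0.11) and with 5% of the other library's reads subtracted (0.036), which also removes viewpoint reads from the denominator. Of local reads (-0.34) it was -0.39 without 10 kb over chromosome 17, -0.39 without 25 kb, -0.38 with spans alone, -0.063 without the tallest fragment, -0.032 by covered length and -0.31 with subtraction. From the Six2 promoter, the share of chromosome 17 (1.03) was 0.59 without 10 kb, 0.59 without 25 kb, 1.09 with spans alone, 0.91 with 10-kb flanks, 1.32 without the tallest fragment, 0.30 by covered length and 0.63 capped. Of local reads (0.96) it was 1.51 with the deposited RPM, 1.06 without 10 kb over chromosome 17, 1.14 with spans alone, 0.69 with 10-kb flanks, 1.65 without the tallest fragment and 0.38 by covered length. Settings chosen after seeing the data were leaving out Plekhh2 (-0.35 and -0.53 from PE Six3, 1.51 from the Six2 promoter) and fragments read in both libraries (-0.86 and -1.16 from PE Six3, 2.08 and 1.86 from the Six2 promoter).

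Of the counts of members, 2 in place of 1 were at least 2-fold higher from PE Six3 with spans alone, 10-kb flanks, any overlap, the tallest fragment left out, subtraction, or shared fragments, and 2 in place of 0 were 2-fold lower with shared fragments. From the Six2 promoter, 1 in place of 5 was 2-fold higher by covered length, and 0 in place of 1 was 2-fold lower with 10-kb flanks or shared fragments. Abcg8 turned to 0.038 with 10-kb flanks and 4.92 with shared fragments, and Dync2li1 to -0.92 by covered length, all from the Six2 promoter. Smaller ratios changed sign too. From PE Six3, Abcg5 was -0.013 without 10 kb and -0.053 without 25 kb around the viewpoint, -0.20 with 10-kb flanks, -0.77 by covered length and -0.96 with shared fragments. Prepl was 0.040 with 10-kb flanks, 0.17 without the tallest fragment, 0.042 with subtraction and 3.29 with shared fragments. Dync2li1 was -0.088 by covered length and -4.17 with shared fragments, and Lrpprc 0.21 by covered length. Slc3a1 was 0.28 without the tallest fragment, 0.15 by covered length and 0.20 with subtraction. From the Six2 promoter, without the tallest fragment Abcg5 was -0.76 and Plekhh2 0.25, and by covered length Abcg5 was -0.026. Plekhh2 from PE Six3 kept its sign under all 12 alternatives, from 1.06 with 10-kb flanks to 9.33 with shared fragments. That last value rests on 1 fragment, with 3.47% of the del36 reads and 0.0407% of the WT reads of the gene. The shared-fragment values of Dync2li1 from PE Six3 and of Abcg8 from the Six2 promoter rest on 1 fragment each too. The cause of these changes was not tested.

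No paired analysis was possible because each viewpoint and genotype has 1 library, which also leaves no replicate to leave out. Counting intervals leave out the spread between cultures, clones and library preparations, and most fragments were read in 1 library of a pair.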
